A study of Mus musculus with 10 samples.

Results

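In this comparison, 10 genes whose proteins coat, enlarge or build lipid droplets were followed in mouse inguinal white adipose tissue, which is fat that lies under the skin. They were taken by symbol from a table of 52636 gene identifiers: Plin1, Plin2, Plin3, Plin4, Plin5, Cidea, Cidec, Hilpda, Bscl2 and Fitm2. All 10 had counts and all 10 were among the 15927 genes that passed the filter on low counts. Total RNA was depleted of ribosomal RNA and sequenced from C57BL/6 mice aged 6 months that ate a 65% high-fat diet. Among them, the 5 controls were homozygous for a floxed Tcf7l2 allele and are labelled as wild type. The 5 knockouts had the same floxed allele and, in addition, a Cre recombinase that the labels write as Adp-Cre and the series title places in adipocytes. Diet and the floxed allele were thus common to every library, and loss of Tcf7l2 cannot be told apart from presence of the Cre. The diet lasted 16 weeks by the diet label, 12 weeks by the sample descriptions and 4 months by the treatment protocol. Libraries are called control 1 to 5 and knockout 1 to 5 in the order of their records, so equal numbers pair nothing. Each sample title carries a number of its own, but no label says in words that each library is a separate mouse. If some are not, the p-values describe only the spread between these samples.

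A lipid droplet is a core of triglyceride and sterol ester inside a single layer of phospholipid, and its surface proteins decide how much of the core lipases can reach. Perilipins, the Plin genes, are the classic coat. CIDE proteins gather where droplets touch and pass lipid from the smaller to the larger, which in white fat cells leaves a large single droplet. HILPDA is a small protein that inhibits the main triglyceride lipase of fat cells. Seipin, the product of Bscl2, and FIT2, the product of Fitm2, act in the endoplasmic reticulum where new droplets form. Tcf7l2, the deleted gene, encodes a DNA-binding partner of beta-catenin in the Wnt pathway.

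The promoters of 4 genes are shown because their transcripts differed between the groups in both directions: Plin2, Hilpda and Bscl2 were higher in the knockout and Plin4 was lower. Each is the RefSeq sequence on GRCm38.p6, from 250 bases before to 50 bases after an annotated start, 5′ to 3′ on the gene's own strand. Capitals mark matches on either strand to any of 5 short motifs. CTTTGA is the core that TCF and LEF factors bind. Many nuclear receptors bind AGGTCA. Hypoxia response elements are built on ACGTG. An E-box, searched as CACGTG, holds that core on both strands. The TATA box was searched as TATAAA.
Plin2 (chr4:86670010-86670309, minus strand): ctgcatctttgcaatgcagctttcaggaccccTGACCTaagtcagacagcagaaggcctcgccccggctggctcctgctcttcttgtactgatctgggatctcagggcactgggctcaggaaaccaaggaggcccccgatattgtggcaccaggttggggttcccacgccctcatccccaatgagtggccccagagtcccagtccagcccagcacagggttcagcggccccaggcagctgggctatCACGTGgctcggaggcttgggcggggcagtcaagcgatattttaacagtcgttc
Hilpda, downstream of 2 annotated starts (chr6:29272376-29272675, plus strand): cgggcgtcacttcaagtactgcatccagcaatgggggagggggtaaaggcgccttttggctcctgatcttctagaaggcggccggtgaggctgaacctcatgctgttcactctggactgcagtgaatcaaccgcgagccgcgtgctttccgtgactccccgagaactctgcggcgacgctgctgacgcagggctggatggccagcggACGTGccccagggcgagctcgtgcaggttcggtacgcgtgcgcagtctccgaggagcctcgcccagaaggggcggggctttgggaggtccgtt
Bscl2, upstream of 3 annotated starts (chr19:8837217-8837516, plus strand): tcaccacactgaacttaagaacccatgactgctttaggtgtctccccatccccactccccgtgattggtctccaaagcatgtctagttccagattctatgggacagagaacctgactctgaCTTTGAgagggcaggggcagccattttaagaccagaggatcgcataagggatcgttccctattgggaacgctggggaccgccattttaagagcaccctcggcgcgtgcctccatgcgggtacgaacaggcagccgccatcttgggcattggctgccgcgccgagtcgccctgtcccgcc
Plin4 (chr17:56109733-56110032, minus strand): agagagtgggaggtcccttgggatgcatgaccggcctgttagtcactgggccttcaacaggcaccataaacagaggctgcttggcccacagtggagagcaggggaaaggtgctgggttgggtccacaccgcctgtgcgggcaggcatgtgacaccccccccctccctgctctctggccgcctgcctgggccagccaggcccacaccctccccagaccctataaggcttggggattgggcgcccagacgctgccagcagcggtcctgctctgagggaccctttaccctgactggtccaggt
The Plin2 window held CACGTG from base -4, counted from the annotated start, and AGGTCA on the opposite strand at base -218. The Hilpda window held ACGTG at base -43. The Bscl2 window held CTTTGA at base -129. For both genes the window shown was the one of several that held these matches: the other Hilpda window held none of the 5 motifs, and of the other 2 Bscl2 windows 1 held AGGTCA, at base -202, and 1 held none. None of the 5 motifs was found in the Plin4 window. Among all 32851 promoter windows of this length, 16.0% held CTTTGA, 16.3% held AGGTCA, 19.6% held ACGTG, 7.15% held CACGTG and 13.6% held TATAAA, so each match is a common one. RefSeq windows were matched for 9 of the 10 genes, all but Cidea. Cidea was also called lower in the knockout and is not shown for lack of a window. The median GC content of all windows was 52.7%, against 60.7% for Plin2, 64.3% for Hilpda, 57.3% for Bscl2 and 65.0% for Plin4.

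Values are CPM, counts relative to the size of each library after TMM scaling, and a change is the log2 ratio of knockout over control. A gene is called at an adjusted p below 0.05 in edgeR's quasi-likelihood test, which is two-sided, with p-values adjusted by the Benjamini-Hochberg method over all tested genes. Total counts ran from 14032866 to 17782073 per library. Tcf7l2 (ENSMUSG00000024985) fell in the knockouts to 54.7% of its control mean, with 5.57 to 6.20 CPM against 9.16 to 11.4 CPM, so each library followed its label (edgeR adjusted p = 6.1e-04). Control 5 stood apart on a score of 786 tested loci of intronic type (mean log2 CPM): the other controls scored 0.73 to 1.27, control 5 scored 0.38 and the knockouts scored 0.06 to 0.46. Lymphocyte markers summed to 718 CPM in knockout 1 and to between 166 and 236 CPM in the other 9 libraries. Ptprc, 1 of the 10 listed, made up most of the control sums, with a mean of 162 CPM in controls and 220 in knockouts. Skeletal muscle markers summed to 630 CPM in control 5, 882 in knockout 1 and 697 in knockout 3, against 69.7 to 166 in the other 7.

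Of the 10 droplet genes, 3 rose in the knockout (Hilpda, Plin2 and Bscl2), 2 fell (Cidea and Plin4) and 5 did not pass (Cidec, Plin3, Plin5, Fitm2 and Plin1). Among all tested genes 12.9% were called, 5.84% as higher and 7.05% as lower. The median change of the 10 was 0.16, against 0.00018 over all tested genes. Fold sizes ran from Cidea, at 46.2% of the control mean, to Hilpda, at 180%. When that score of intronic-type loci entered the fit as covariate, 49 of all tested genes and none of the 10 passed (adjusted p from 0.223 for Cidea to 0.950 for Plin5), and apart from Fitm2 each of the 10 kept its direction. In that fit the change of Hilpda was 0.42 in place of 0.85, that of Plin2 0.25 in place of 0.39, that of Cidec 0.15 in place of 0.28 and that of Bscl2 0.22 in place of 0.29. Plin4, at -0.32, and Cidea, at -1.53, lay farther from 0 than without the covariate. The score differed between the groups as given above, and its part in these results was not tested. None of the 5 calls held through the omission of each library in turn. An unadjusted p below 0.05 was reached by 7 of the 10 in the full edgeR fit, as by 31% of all tested genes. The number was also 7 in each fit without 1 library, and it was 2 with the covariate. In whole tissue, fewer cells of a type and less RNA per cell cannot be told apart.

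**Figure D1:**
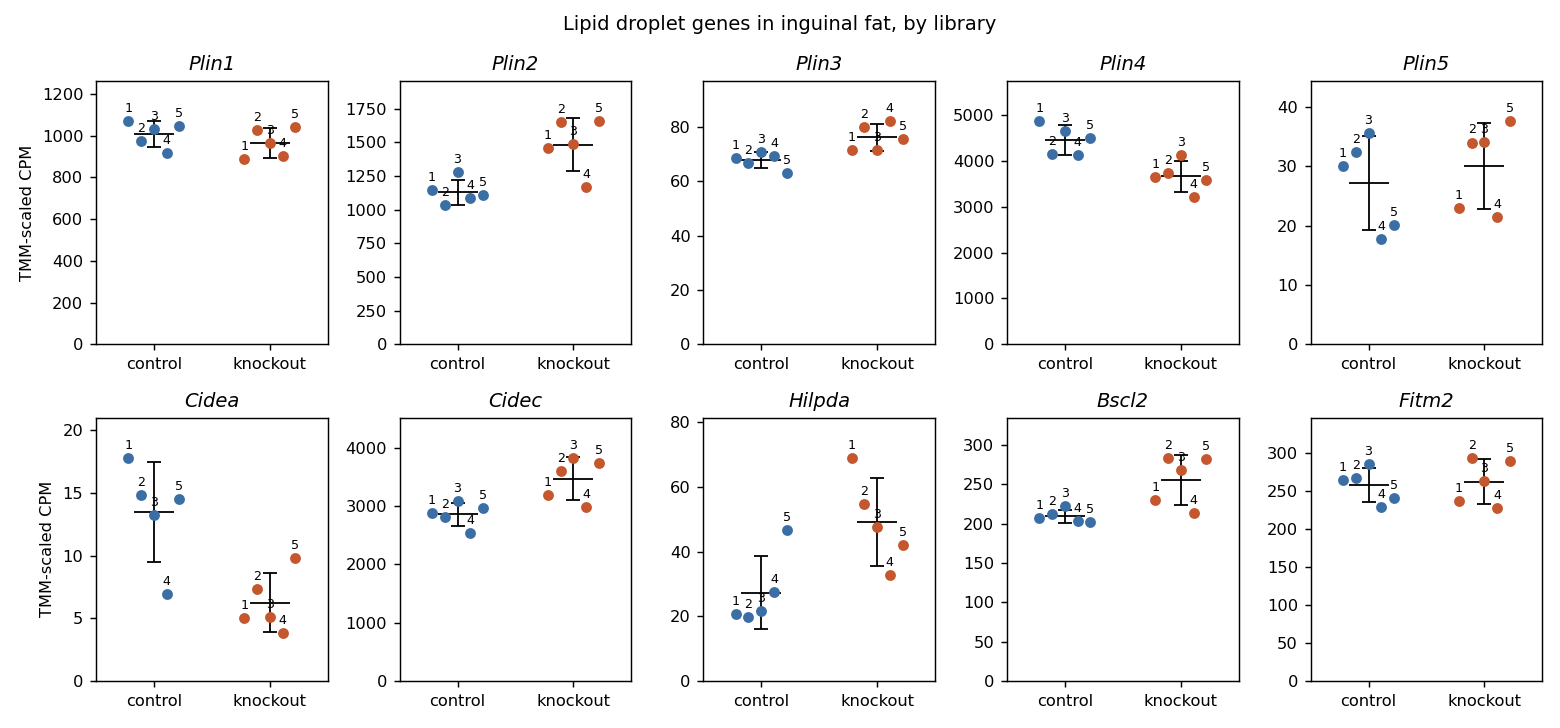
TMM-scaled CPM (vertical axis, from 0, a separate scale for each gene) of the 10 droplet genes in control and knockout libraries. Points are libraries with their numbers, and bars give mean ± SD of 5. Plin3 and Plin4 are the genes whose groups do not overlap, and control 5 lies among the knockouts for Hilpda.

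**Figure D2:**
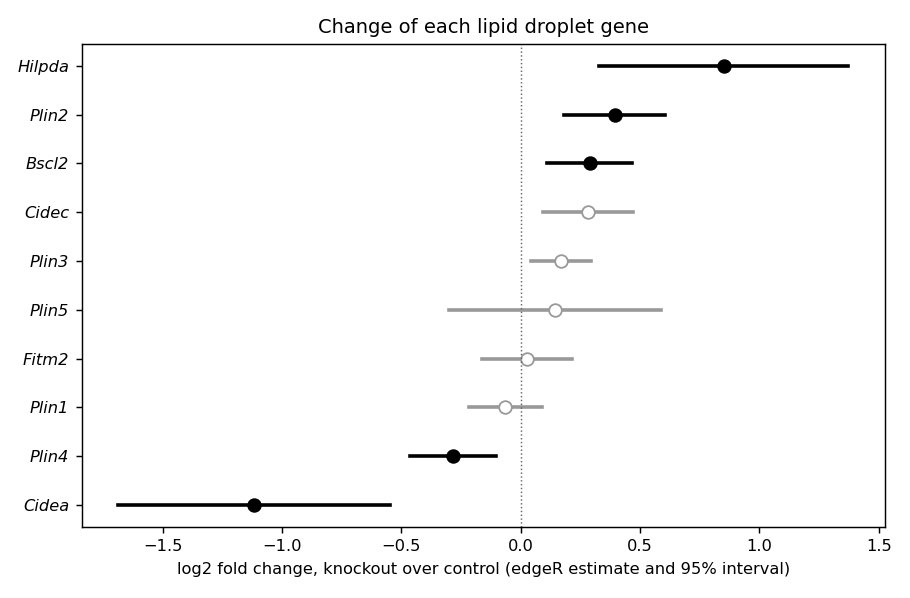
Log2 fold change of knockout over control (horizontal axis) for each gene, with its 95% interval from the edgeR fit over all genes. Filled points passed an adjusted p of 0.05, and open points did not. Hilpda at 0.85 and Cidea at -1.12 lie at the ends, with the widest intervals of the called genes.

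Perilipin 1 guards the surface of the large droplet of white fat cells and, when unphosphorylated, holds back the lipase coactivator ABHD5. Plin1 (ENSMUSG00000030546, GRCm38 chromosome 7, 79720218 to 79732903, minus strand) gave 1070, 977, 1032, 919 and 1048 CPM in the controls, in the order 1 to 5, and 887, 1029, 964, 905 and 1043 CPM in the knockouts, likewise in order. The groups overlapped, with knockouts 1 and 4 below all controls and the other 3 inside the control range. Its log2 change was -0.06 with an SE of 0.072 (edgeR adjusted p = 0.576), and the 95% interval allowed between 0.859 and 1.07 times the control level.

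Perilipin 2 coats droplets in nearly every cell type and is destroyed when it is not bound to lipid. Plin2 (ENSMUSG00000028494, chromosome 4, 86648386 to 86670060, minus strand) stood at 1144, 1032, 1279, 1086 and 1106 CPM in the controls and at 1460, 1648, 1485, 1169 and 1658 CPM in the knockouts. Of the knockouts, 4 lay above every control, and knockout 4 lay within the control range below control 3. The mean rose from 1129 ± 92.8 to 1484 ± 198 CPM (SD, n = 5 each). The log2 change was 0.39 with an SE of 0.098 (edgeR adjusted p = 0.025). Omitting controls 1, 2 or 4 or knockouts 2 or 5 ended that call, at an adjusted p of at most 0.077, while the change stayed between 0.35 and 0.47. Scaled to 8 adipocyte markers instead of TMM, Plin2 changed by 0.43 (adjusted p = 0.0081).

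Perilipin 3 is mostly cytosolic and moves onto small, newly made droplets. Plin3 (ENSMUSG00000024197, chromosome 17, 56277476 to 56292873, minus strand) had 68.4, 66.9, 70.7, 69.5 and 63.2 CPM in the controls and 71.6, 80.1, 71.4, 82.2 and 75.6 CPM in the knockouts. No knockout reached down to the highest control, although knockout 3 missed it by less than 1 CPM. The change of 0.17 (SE 0.058) did not pass (adjusted p = 0.072 by edgeR, and 0.036 by DESeq2). Of all tested genes, 8.99% had groups that did not overlap, 4.55% with the knockouts above and 4.45% with the knockouts below, and of the 10 droplet genes this held for Plin3 and Plin4. Without knockout 1 the adjusted p of Plin3 was 0.047, and in the other 9 such fits it was not called.

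Perilipin 4 carries a long run of near-identical repeats that fold as an amphipathic helix, and in mice it is abundant in white fat. Plin4 (ENSMUSG00000002831, chromosome 17, 56100591 to 56109803, minus strand) measured 4874, 4149, 4659, 4144 and 4496 CPM in the controls and 3649, 3741, 4135, 3220 and 3580 CPM in the knockouts. All 5 knockouts lay below all 5 controls, with knockout 3 just under control 4. The mean went from 4465 ± 320 to 3665 ± 329 CPM, a drop of 17.9%. It fell by 0.28 on the log2 scale with an SE of 0.083 (edgeR adjusted p = 0.042). This call held only without control 5 or knockout 3 and was lost without any of the other 8 libraries (adjusted p up to 0.114), and scaled to the adipocyte markers it was lost too (-0.24, adjusted p = 0.097). The sources used here do not say how reads from the repeats were assigned, and 0.294% of the exonic bases are shared with Hdgfl2. Hdgfl2 was itself called lower (-0.39, edgeR adjusted p = 0.022).

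Perilipin 5 belongs to oxidative tissues, where it brings droplets and mitochondria together. Plin5 (ENSMUSG00000011305, chromosome 17, 56111601 to 56117596, minus strand) varied strongly inside each group: 30.0, 32.5, 35.7, 17.7 and 20.0 CPM in the controls and 23.0, 34.0, 34.2, 21.4 and 37.6 CPM in the knockouts. The low libraries were controls 4 and 5 and knockouts 1 and 4. Its change of 0.14 did not pass (edgeR adjusted p = 0.670), and the 95% interval on the log2 scale ran from -0.30 to 0.59, so a change of moderate size was not detectable with this spread. Of the 3 libraries with high muscle marker sums, control 5 and knockout 1 were low in Plin5 and knockout 3 was high.

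Plin3, Plin4 and Plin5 lie on the same strand within 192 kb of chromosome 17, and 1797 bases separate Plin4 from Plin5. They did not share a response: Plin4 was called lower, while Plin3 and Plin5 had positive changes that did not pass. Of 18 protein-coding genes that flank the 10 and are not among them, 14 were tested and 2 were called, which is 14.3% and near the share of all tested genes.

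Setting the 5 perilipins on a common scale requires division by length. The length used was all exonic bases of a gene over its annotated transcripts, 8 for Plin2 and 2 for Plin4. Which transcripts were present was not determined, so levels per kilobase depend partly on the annotation. Per kilobase of exon, the summed perilipin level was 1342 ± 88.5 CPM per kb in the controls and 1299 ± 112 in the knockouts (SD, n = 5 each), and the groups overlapped. Its makeup differed. Plin4 made up 58.9%, 57.2%, 56.5%, 57.3% and 57.9% of it in the controls and 49.8%, 47.1%, 51.8%, 49.9% and 45.8% in the knockouts. Plin2 made up 22.7%, 23.4%, 25.5%, 24.7% and 23.4% in the controls and 32.8%, 34.1%, 30.6%, 29.8% and 34.9% in the knockouts. Both shares separated all controls from all knockouts, including knockout 4, whose Plin2 level alone lay in the control range. Plin1 held 16.2 ± 0.550% and 16.0 ± 1.03%, and Plin3 and Plin5 held under 2% in each library. The level of Plin2 over that of Plin4 was 0.386 to 0.451 in controls and 0.591 to 0.762 in knockouts, control 5 included. These ratios were chosen after the values had been seen and carry no test, and a share can rise because another falls.

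**Figure D3:**
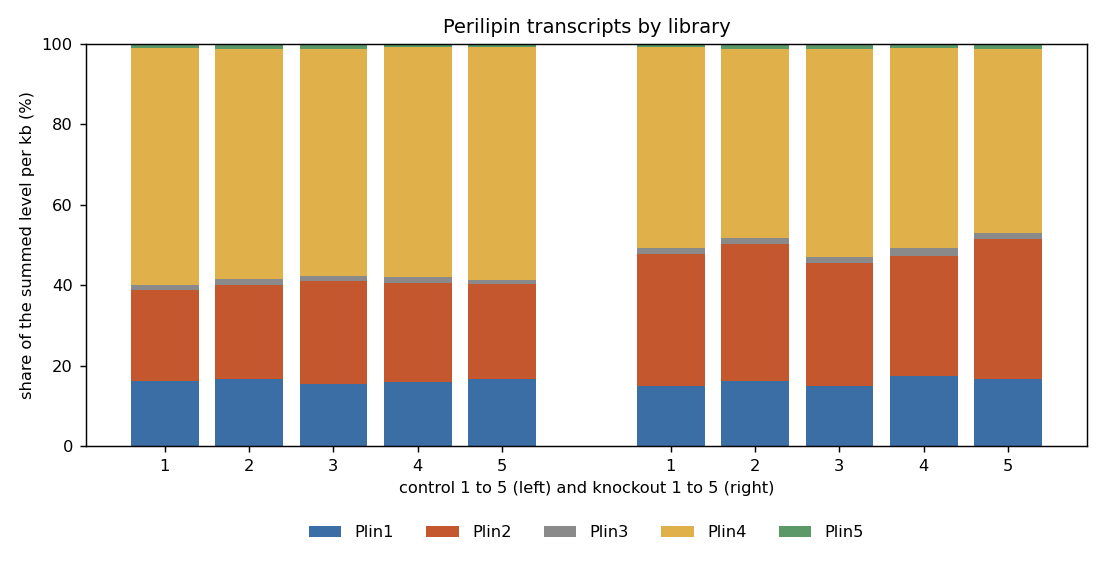
Share of each perilipin (percent, vertical axis) in the summed level per kilobase of the 5 perilipins, with 1 bar per library, controls on the left and knockouts on the right. The Plin2 band is 22.7% to 25.5% in controls and 29.8% to 34.9% in knockouts, and the Plin4 band narrows from 56.5% or more to 51.8% or less.

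CIDEA is the CIDE protein of brown fat in mice, and it also appears in white fat. Cidea (ENSMUSG00000024526, chromosome 18, plus strand) had the largest change of the 10 genes with all libraries in the fit (without control 5, Hilpda had it). It gave 17.8, 14.8, 13.2, 6.96 and 14.5 CPM in the controls and 5.06, 7.36, 5.08, 3.85 and 9.79 CPM in the knockouts, on 58 to 299 counts per library. Controls 1, 2, 3 and 5 lay above every knockout, and control 4 fell between knockouts 1 and 2. The mean fell from 13.5 ± 4.00 to 6.23 ± 2.36 CPM, and 5 of 5 knockouts were below the control median. On the log2 scale the change was -1.12 with an SE of 0.26 (edgeR adjusted p = 0.022). The call was kept in 8 of 10 fits that each left out a library, and lost without control 1 (adjusted p = 0.064) or control 2 (0.060). Scaled to the adipocyte markers it changed by -1.09 (adjusted p = 0.015).

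Cidea is often read as a marker of brown and beige fat cells. Of 12 listed brown and beige genes, 10 were tested: 3 rose (Dio2, Elovl3 and Otop1), 1 fell (Ebf2) and 6 did not pass, with a median change of -0.02 over genes that went both ways. With the covariate none of them passed, and Ebf2 was lost when scaled to the adipocyte markers. Ucp1, the uncoupling protein that defines these cells, stood at 2.08, 1.85, 4.55, 0.946 and 2.64 CPM in the controls and 1.26, 8.88, 3.69, 5.77 and 3.63 CPM in the knockouts (change 0.94, edgeR adjusted p = 0.182). Knockout 4, the lowest library for Cidea, had more Ucp1 than any library but knockout 2. The summed list ran from 119 to 143 CPM over the controls and from 134 to 180 over the knockouts. Mammary epithelium also makes Cidea, and its markers were near absent: 12 of 13 listed epithelial genes failed the filter, Krt18 was between 0 and 0.492 CPM, and the whole list summed to 1.27 to 3.75 CPM over the controls and 2.04 to 5.46 over the knockouts.

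CIDEC, also called FSP27, is the CIDE protein of white fat cells. Cidec (ENSMUSG00000030278, chromosome 6, 113424634 to 113435760, minus strand) had 2880, 2817, 3080, 2542 and 2961 CPM in the controls and 3196, 3599, 3826, 2981 and 3743 CPM in the knockouts. Knockouts 1, 2, 3 and 5 exceeded every control, and knockout 4 lay between controls 5 and 3. Its change of 0.28 (SE 0.087) just failed to pass (adjusted p = 0.052 by edgeR). It passed by DESeq2 (0.30, adjusted p = 0.0083), with sample quality weights in limma-voom (0.33, adjusted p = 0.013) and when scaled to the adipocyte markers (0.32, adjusted p = 0.014). It also passed in 3 of the 10 fits without 1 library, those without control 5, knockout 1 or knockout 4. Cidec did not pass in limma-voom without weights (adjusted p = 0.056). In edgeR it did not pass with RLE factors (0.052), without the low count filter (0.091), with protein-coding genes only (0.059) or with the covariate (0.693). The level per kilobase of Cidec over that of Plin1, again a pair picked after the values were seen, was 6.74 to 7.48 in controls and 8.25 to 9.94 in knockouts. Cidec stood 97.2 to 219 times above Cidea per kilobase in controls and 230 to 465 times above it in knockouts.

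HILPDA binds the lipase encoded by Pnpla2 and is induced by low oxygen and by fatty acids. Hilpda (ENSMUSG00000043421, chromosome 6, 29272488 to 29275446, plus strand) gave 20.8, 19.9, 21.5, 27.6 and 46.6 CPM in the controls and 68.9, 54.6, 47.4, 32.7 and 42.0 CPM in the knockouts. Controls 1 to 4 lay below every knockout, and control 5 lay above knockouts 4 and 5. The mean rose from 27.3 ± 11.2 to 49.1 ± 13.6 CPM. Its log2 change was 0.85 with an SE of 0.24 (edgeR adjusted p = 0.039), and the 95% interval of the fold ran from 1.25 to 2.59. Without control 5 the change was 1.14 (adjusted p = 0.0035), and the call also held without knockout 4. Without any of the other 8 libraries it was lost (adjusted p up to 0.102), as it was when scaled to the adipocyte markers (0.90, adjusted p = 0.057). Hilpda was thus high in control 5, the control whose intronic-type score lay inside the knockout range and whose muscle marker sum was 630 CPM. Among the knockouts, Hilpda was highest in knockout 1 (score 0.44, muscle sum 882 CPM). Knockout 5 had the lowest score, 0.06, and 42.0 CPM of Hilpda. Knockout 3, with a muscle sum of 697 CPM, had 47.4 CPM of Hilpda. The part of the score or of muscle in the Hilpda level was not tested.

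The lipase itself and its partners did not pass: Pnpla2 changed by -0.04 (adjusted p = 0.855 by edgeR), its coactivator gene Abhd5 by 0.22 (adjusted p = 0.105) and its other small inhibitor G0s2 by -0.16 (adjusted p = 0.593). Hif1a, an oxygen-sensitive factor known to act on Hilpda, stood at 210, 207, 241, 227 and 283 CPM in the controls and 258, 283, 282, 274 and 336 CPM in the knockouts (change 0.30, edgeR adjusted p = 0.058). Control 5 was again the highest control. Hif1a passed by DESeq2 (adjusted p = 0.024), in edgeR without the low count filter (0.025), in limma-voom with sample weights (0.0076), and without control 5 (0.012), knockout 1 (0.038) or both (0.0052). With the covariate of intronic-type loci its change was -0.014 (adjusted p = 0.973).

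Seipin forms rings at the contacts between the endoplasmic reticulum and a growing droplet, and people who lack it have almost no fat tissue. Bscl2 (ENSMUSG00000071657, chromosome 19, 8837467 to 8848683, plus strand) had a narrow spread in the controls, at 207, 212, 222, 203 and 202 CPM, and gave 230, 283, 268, 213 and 282 CPM in the knockouts. Knockouts 2, 3 and 5 stood well above all controls, knockout 1 slightly so, and knockout 4 among them. It rose from 209 ± 8.12 to 255 ± 32.0 CPM, a log2 change of 0.29 with an SE of 0.082 (edgeR adjusted p = 0.039). Omitting controls 1, 2 or 4 or knockouts 2, 3 or 5 ended the call, at an adjusted p of at most 0.095. Scaled to the adipocyte markers it was 0.32 (adjusted p = 0.016). Of its exonic bases 10.8% are shared with other genes, among them Gng3 on the opposite strand, which had at most 0.689 CPM.

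FIT2 helps new droplets bud toward the cytosol. Fitm2 (ENSMUSG00000048486, chromosome 2, 163466379 to 163472629, minus strand) stood at 264, 267, 285, 228 and 241 CPM in the controls and at 236, 293, 263, 228 and 289 CPM in the knockouts. The groups covered almost the same range. Its change of 0.026 did not pass (edgeR adjusted p = 0.869), and the 95% interval on the log2 scale ran from -0.16 to 0.21. Bscl2 over Fitm2, per kilobase, was 0.523 to 0.599 in the controls and 0.629 to 0.686 in the knockouts. That pair was picked after the values were seen. Of the exonic bases of Fitm2, 5.72% are shared with the antisense gene 2310001K24Rik, at 0.287 to 1.23 CPM. 2310001K24Rik was called lower (-1.02, edgeR adjusted p = 0.025).

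Per kilobase, the order of levels in the controls was Cidec at 1539 CPM per kb, Plin4 at 773, Plin2 at 322, Plin1 at 217, Fitm2 at 64.8, Bscl2 at 35.4, Hilpda at 24.7, Plin3 at 17.9, Plin5 at 13.0 and Cidea at 12.1. The ranges of neighbours in that order were separate down to Bscl2, while Bscl2 and Hilpda, Hilpda and Plin3, Plin3 and Plin5, and Plin5 and Cidea overlapped. In the knockouts the first 5 places were the same. Hilpda, at 44.6 CPM per kb, stood beside Bscl2 at 43.3 and overlapped both it and Fitm2 at 66.0. Cidea, at 5.58 CPM per kb, was separate from Plin5 at 14.4. By this measure, Cidec and Plin4 together gave most of the transcripts of these 10 genes in either group. The order depends partly on the annotated exonic length of each gene, which spans 10 transcripts for Bscl2 and 1 for Fitm2.

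Inside the knockout group the genes rose and fell by library. Knockout 4 was the lowest knockout for 8 of the 10 genes, all but Plin1 and Plin3, and the highest for Plin3. Knockout 1 was among the lowest 2 knockouts for 8 genes and was the highest for Hilpda. Knockout 2 was among the highest 2 for 8 genes and knockout 5 for 7. Among the controls, control 4 was lowest for 6 genes and control 3 highest for 6. Levels of 8 adipocyte markers outside the droplet genes, relative to the geometric mean of the libraries, were 0.881 in knockout 4 and 0.886 in knockout 1. They ran from 0.971 to 1.07 in the other 8 libraries. Unlike the CPM values, these levels do not include the TMM factors, which ran from 0.933 in knockout 5 to 1.06 in control 4. Adipoq, the adiponectin gene and 1 of those 8 markers, was at 2297 CPM in knockout 4 and 2824 in knockout 1, against 3134 to 3379 in the other knockouts and 2687 (control 4) to 3388 (control 5) in the controls (means of 2989 CPM in controls and 2976 in knockouts, log2 change -0.0060, edgeR adjusted p = 0.975). The 8 were Adipoq, Fabp4, Lpl, Cd36, Pparg, Cebpa, Acvr1c and Retn. Of these, Retn was itself called lower with TMM (-0.56, edgeR adjusted p = 0.033), and the other 7 did not pass. When libraries were scaled to those 8 markers, 3 of the droplet genes rose (Plin2, Bscl2 and Cidec) and 1 fell (Cidea). Over all genes 531 were then higher and 274 lower, against 930 and 1123 with TMM. The part of Retn in these counts was not tested.

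**Figure D4:**
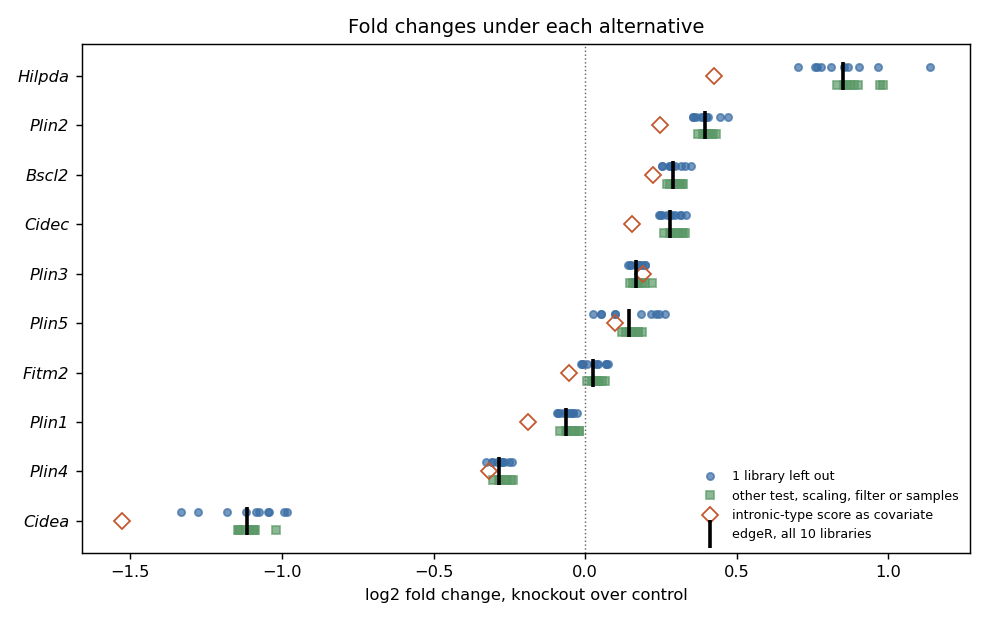
Log2 fold change of knockout over control (horizontal axis) for each gene with all 10 libraries (bar), with 1 library left out (circles), with another test, scaling, filter or set of samples (squares) and with the covariate of intronic-type loci (diamond). Hilpda moves between 0.42 and 1.14 and Cidea between -1.53 and -0.99, and Fitm2 is the gene that crosses 0.

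Of 34 other proteins found on or at droplets, 31 were tested, and 4 rose, 1 fell and 26 did not pass (median change 0.08). The share called is near that of all tested genes, 12.9%, with 5.84% higher and 7.05% lower. Lss, a sterol synthesis enzyme that can sit on droplets, rose from 68.8 ± 1.76 to 99.5 ± 14.1 CPM (edgeR adjusted p = 0.0051) and kept its call whichever library was omitted. Dgat2, which makes triglyceride at the droplet surface, rose from 1826 ± 145 to 2285 ± 236 CPM (0.32, adjusted p = 0.034), with 4 of 5 knockouts above all controls. The related Mettl7b and Mettl7a1, methyltransferase-like proteins of the droplet and endoplasmic reticulum, went opposite ways: Mettl7b rose by 0.61 (adjusted p = 0.021) on 83 to 193 counts per library, and Mettl7a1 fell by 0.35 (adjusted p = 0.022). Aup1, an ubiquitin ligase adaptor on droplets, was the other gene that rose (0.20, adjusted p = 0.039). Its call held in 3 of the 10 edgeR fits without 1 library (adjusted p up to 0.092). Of the exonic bases of Aup1, 23.0% are shared with a gene on the opposite strand. Omitting controls 1, 2 or 4 or knockouts 2, 3 or 5 lost the call of Dgat2, and the number of genes that rose was 1 without control 1 or control 2 and 2 without control 4 or knockout 2, 3 or 5, against 8 without knockout 4 and 6 without knockout 1. Mettl7a1 was lost without control 1, control 2 or knockout 2.

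None of 14 listed transcription factors and coactivators that act on droplet genes passed by edgeR, and 5 had an unadjusted p below 0.05, as did 31% of all tested genes. DESeq2 called 2 of them, limma-voom 0 and limma-voom with sample weights 2. Pparg, the main driver of perilipin genes in fat cells, changed by -0.13 (adjusted p = 0.352). Esrra, a receptor for oxidative genes, changed by 0.27 (adjusted p = 0.070), and Ppargc1a, its coactivator, by -0.57 (adjusted p = 0.103), with 3 knockouts below all controls. In the list of 14 mature adipocyte markers, 2 rose (Lep and Fasn), 3 fell (Cfd, Retn and Slc2a4) and 9 did not pass, with a median of -0.0024. With the covariate, 0 rose and 1 fell, and 0 rose without control 1, 2 or 4 or knockout 2 or 5.

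Other cells of the depot also hold droplets. None of 13 macrophage markers passed by edgeR, and none had an unadjusted p below 0.05; DESeq2 and limma-voom, with or without sample weights, called 0 as well. Without Lpl, which fat cells also make, the macrophage list summed to 2394 to 2878 CPM in controls and 2348 to 2886 in knockouts, and Adgre1 stood at 192 to 247 and 165 to 217 CPM. Of 12 endothelial markers 9 fell and none rose. The number that fell was 0 with the covariate of intronic-type loci, 0 when scaled to the adipocyte markers, and between 3 and 5 on omission of control 1, 2 or 4 or of knockout 5. Their sum was 972 to 1131 CPM in the knockouts against 1164 to 1498 in the controls. Of 10 lymphocyte markers 6 rose by edgeR, against 3 by DESeq2, 0 by limma-voom, 1 with sample weights, 0 with the covariate, 0 without control 1, 2 or 4, 2 without control 3 or knockout 5, and 9 without the low count filter. Of 12 listed muscle markers, 10 were tested and none passed or had an unadjusted p below 0.05 by edgeR, and DESeq2 and limma-voom called 0 as well. Without control 5, however, 7 muscle markers were called higher in the knockout, and 1 was with sample weights or without the low count filter. Acta1 reached 204 CPM in control 5 and 179 CPM in knockout 1. Of 12 progenitor markers, 11 were tested and none passed. No listed marker was at 0 counts in all libraries, and the part of these cell types in the droplet gene changes was not tested. Leaving out control 5 and knockout 1 together gave 4 droplet genes higher (Plin2, Cidec, Hilpda and Bscl2) and 2 lower (Plin4 and Cidea), and in that fit 6 muscle markers were higher as well. Calls over all genes also grew in that fit, to 3774 from 2053 with all libraries.

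The genes whose pattern over the 10 libraries was nearest to each called droplet gene were found by the mean absolute difference of standardised log2 CPM, among 13186 genes that averaged 1 or more on the log2 CPM scale. Nearest to Plin2 were Elob (0.172), Mrpl30 (0.178) and Cyb5b (0.181), and nearest to Bscl2 were Gpd1 (0.142), Fam122b (0.147) and Cyb5b (0.148). Plin2 and Bscl2 were each other's nearest droplet gene, at 0.241. Gpd1 encodes the enzyme that makes glycerol 3-phosphate for triglyceride, and Cyb5b a cytochrome of the outer mitochondrial membrane. Nearest to Plin4 were D2hgdh (0.262), Cry2 (0.280) and Slc2a4 (0.288), the last the insulin-responsive glucose transporter. Nearest to Cidea were Suclg2 (0.220), Echdc3 (0.235) and Amy1 (0.246), and nearest to Hilpda were Slc20a1 (0.180), Map1s (0.224) and Tnk2 (0.229). The closest droplet gene to Hilpda was Plin2, at 0.626. The patterns include the difference between the groups, and a search of 13186 genes returns near ones for any gene. These distances therefore carry no test, and shared regulation was not tested.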

How the data were processed

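Counts of reads per gene, whole numbers with no normalization, were deposited by the authors in 1 table for all 10 libraries. STAR 2.5.2b, featureCounts 1.5.1, DESeq2 1.16.0 and GRCm38 are named per the submitters' processing notes, while the sources used here give no annotation release, strand setting or handling of multiply matching reads. Symbols, positions and lengths came from GENCODE M21 (52489 of 52636 identifiers matched). Genes were filtered with filterByExpr by group, scaled with TMM and tested in edgeR 4.0.16 (R 4.3.3) with no covariate. Standard errors and 95% intervals were derived from the F statistic. A count of 3 corresponded to 0.172 to 0.205 CPM, which covers counting error alone. The 20 pairs of libraries within a group differed beyond sampling noise (chi-square per degree of freedom 7.13 to 29.4). Library numbers 1 to 5 are controls and 6 to 10 knockouts, so genotype and library order cannot be told apart.

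The 10 genes and all lists were chosen with earlier results of these data known. Named by rule were the 10 genes, Tcf7l2, up to 4 other droplet proteins and 3 regulators of smallest p, and 5 cell type markers. For each called gene, the 3 genes nearest in pattern were also named by rule. Other called members of the lists, Pnpla2, Abhd5, G0s2, Pparg, Ptprc, Gng3, Hdgfl2 and 2310001K24Rik were named after their values were seen. So were the 8 scaling markers, as a set. Alternatives were DESeq2 1.42.0, limma-voom (limma 3.58.1) with and without sample weights, RLE factors, no filter, scaling to 8 adipocyte markers and leaving out each library. A covariate of intronic-type loci (GENCODE types TEC and sense_intronic), protein-coding genes only, and omission of control 5 with knockout 1 were added after seeing the data. The fit was tested on simulated data.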

Additional observations from a re-analysis of the deposited data

Results flagged for a closer look

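The Hilpda level of control 5, 46.6 CPM, stood far above the other 4 controls, which lay between 19.9 and 27.6 CPM. Its gap to the nearest control was 0.711 of the range of the group, against a critical value of 0.71. The 10 droplet genes and Tcf7l2 were looked at in both groups, 22 groups of values in all, and chance alone gives about 1 such library in 20 groups.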

How the results depend on the processing

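Over all genes the number called was 2053, and it was 805 when scaled to adipocyte markers, 3605 by limma-voom with sample weights, 49 with the intronic-type covariate, 3774 without control 5 and knockout 1 together, and 537 to 3094 when 1 library was left out. The 3 droplet genes that rose became 5 by DESeq2 and 0 with the covariate, and 0 to 4 without 1 library. The 2 that fell became 1 without the low count filter, 1 with adipocyte marker scaling and 0 with the covariate, and 0 to 2 without 1 library. Of the other droplet proteins, 4 rose, and the number was 9 by DESeq2, 9 by limma-voom with sample weights, 9 without control 5 and knockout 1, 0 with the covariate and 1 to 8 without 1 library; the single fall became 0 with adipocyte marker scaling and with the covariate, and 0 to 1 without 1 library. Fitm2 changed sign with the covariate (-0.054) and ran from -0.015 to 0.074 without 1 library. Tcf7l2 kept its call in each alternative, from -0.92 to -0.84 without 1 library. Where calls were lost, the cause was not tested. The 10 genes in 10 leave-out fits gave 100 single-gene verdicts: 64 were the same, with 29 losses, 4 gains and 3 changes of sign. All losses fell on the 5 called genes, while an uncalled gene that stayed uncalled counts as the same. Of 10 such fits each, Cidea kept its call in 8, Plin2 in 5, Bscl2 in 4, and Hilpda and Plin4 in 2. No paired analysis was possible because the groups share no replicate number in the labels. Each droplet gene had 58 counts or more in every library, and the part of depth in the spread between libraries was not tested.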
